A study of Homo sapiens with 21 samples.

Results

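The genes described here encode the elastic fibres, proteoglycans and adhesive glycoproteins of the matrix that fibroblasts lay down around themselves. They were taken by name from a list of 42 genes, not by their measured values, and all 42 were among the 16383 genes of the deposited table. Of these, 39 reached a normalised read count of at least 10 in at least 3 libraries and were tested with the other genes that did so, 11579 in all. The 3 that did not were OGN, ASPN and TNXB.

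RNA was sequenced after poly(A) capture from IMR90 cells, a human fibroblast line established from lung and labelled as wild type, in 7 groups of 3 libraries. Proliferating cells had received neither irradiation nor siRNA, per the labels. The other 6 groups were irradiated to bring on senescence, a lasting arrest of cell division, given 5 nM siRNA at days 4 and 7 afterwards, and harvested on day 10. The siRNA was one of the non-targeting controls, NT3 or NT4, or was directed at CCND1 (cyclin D1), CDK4, CDK6, or both kinases at once (dual knockdown). Cyclin D1 binds the kinases CDK4 and CDK6 and drives cells through the G1 phase. In every comparison with proliferating cells, irradiation, transfection and time cannot be told apart. The sample titles name each target and not the siRNAs used against it. The labels do not say whether the 3 libraries of a group came from separate cultures. The p-values therefore measure the spread between these libraries, which may be technical. NT3 and NT4 are the names in the sample titles; the series description numbers the controls otherwise.

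Read totals over the genes of the table ran from 12892442 to 21822152 per library. The siRNAs left 8.67% to 20.6% of the mean control level of their targets, and in no case did a knockdown library overlap a control library. The fibroblast genes COL1A1 and VIM were at 186736 or more and 50913 or more normalised reads in each library, while defining genes of lung epithelium (SFTPC, at most 3 reads), endothelium (CDH5, at most 3), T cells (CD3E, at most 2) and differentiated smooth muscle (MYH11, at most 2) were at or near 0. Other genes of the same lists were expressed. The epithelial KRT18, KRT8 and KRT19 were at 826 to 1995, 262 to 412 and 144 to 563 normalised reads. The endothelial TEK was at 1756 to 4484 and the leukocyte CD68 at 650 to 1588. The summed smooth muscle markers, carried by ACTA2 and CNN1, did move with the groups: 6714 to 6968 in proliferating cells, 3925 to 4886 with NT3 or NT4, 8526 to 9386 in CCND1 knockdown, 3363 to 3695 in CDK4 knockdown, 9339 to 9910 in CDK6 knockdown and 6878 to 7441 in dual knockdown. The summed levels of the other marker lists also differed between libraries (epithelial 1581 to 2682, endothelial 1763 to 4509, leukocyte 654 to 1604, pericyte 2052 to 5935). The part of these genes in the results was not tested. In bulk RNA, fewer cells expressing a gene and less of its RNA per cell cannot be told apart.

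As background, elastic fibres form when tropoelastin, the product of ELN, is laid on a scaffold of fibrillin microfibrils with the help of fibulins and is then joined by lysyl oxidases. Microfibrils also hold latent TGF-beta through the latent TGF-beta binding proteins. Small leucine-rich proteoglycans such as decorin and lumican bind collagen fibrils and set their spacing, and matricellular glycoproteins such as tenascin-C, thrombospondins and periostin act on how cells attach and signal. In the lung these proteins give the tissue its recoil, and fibroblasts are a main source of them.

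The matrix genes took 2.41% to 2.47% of the reads of proliferating libraries and 3.01% to 3.82% of the reads of irradiated libraries, except for NT3 replicate 3, at 2.38%. Per kb of the MANE Select transcript, 3 genes led in every group: SPARC, FN1 and TGFBI. In proliferating cells their levels were 13834 ± 224, 13063 ± 485 and 10706 ± 141 normalised reads per kb (SD, n = 3). With NT4 the order was TGFBI at 25901 ± 901, FN1 at 23910 ± 870 and SPARC at 22249 ± 389, and in CCND1 knockdown FN1 led at 28212 ± 707. At the other end, MFAP5, HAPLN1 and PRELP stayed below 10 normalised reads per kb in the proliferating, NT3 and NT4 groups, and elastin itself was low, at 43.0 ± 9.67 per kb in proliferating cells. OGN had at most 3 reads in a library, ASPN at most 10 and TNXB at most 1, so differences in these small proteoglycans and in tenascin-X were not detectable at this depth. Reads of TNXB can also fall in its pseudogene copy.

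Senescence was accompanied by change in both directions. Set against the mean of NT3 and NT4, proliferating cells differed at 25 of the 39 genes (limma, adjusted p under 0.05), against 68.6% of all genes tested. With senescence 12 were higher and 13 lower, against 32.6% and 36.1%, and the median log2 fold change was 0.05 against -0.03 over all genes. The periostin, TGFBI, latent TGF-beta binding protein 3, lumican and fibromodulin genes rose, while fibulin-1, tenascin-C, nidogen-1, LTBP4, LOXL1, LOXL3 and biglycan fell. The libraries of the arms did not overlap for 22 genes, against 54.1% of all genes. Centring each library on its median, which moves this comparison by 0.11 on the log2 scale, gave 17 higher and 11 lower.

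The non-targeting siRNAs differed from each other. NT4 libraries had 20 matrix genes higher and 3 lower than NT3 libraries, against 14.7% and 13.1% of all genes, with a median of 0.29 against -0.01. The groups did not overlap for 21 genes (34.9% of all genes). Knockdowns were therefore set against the mean of both controls and against each control alone. CDK6 knockdown had 26 matrix genes higher and 4 lower than the mean of the controls, against 21.1% and 20.8% of all genes (median 0.39 against -0.01). CCND1 knockdown had 22 higher and 2 lower, against 16.7% and 14.4% (median 0.28 against -0.01). Dual knockdown had 19 higher and 3 lower, against 22.5% and 21.5% (median 0.20 against 0.00), and CDK4 knockdown 7 higher and 3 lower, against 8.46% and 7.55% (median 0.04 against 0.00). These comparisons share their control libraries. Past the threshold in the same direction against each control alone were 15 genes in CDK6 knockdown, 14 in dual knockdown, 9 in CCND1 knockdown and 3 in CDK4 knockdown, against 21%, 23.6%, 11.6% and 4.67% of all genes. Against NT4 alone, CDK4 knockdown had 2 genes higher and 7 lower, against 5.66% and 5.93% of all genes, and CDK6 knockdown 15 higher and 4 lower, against 15.2% and 15.4%. The median of the matrix genes also moved with the control. In CDK6 knockdown it was 0.43 against NT3 alone and 0.14 against NT4 alone, in CCND1 knockdown 0.35 and 0.18, in dual knockdown 0.38 and 0.15, in CDK4 knockdown 0.13 and -0.12, and in senescence -0.13 and 0.21.

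**Figure D1:**
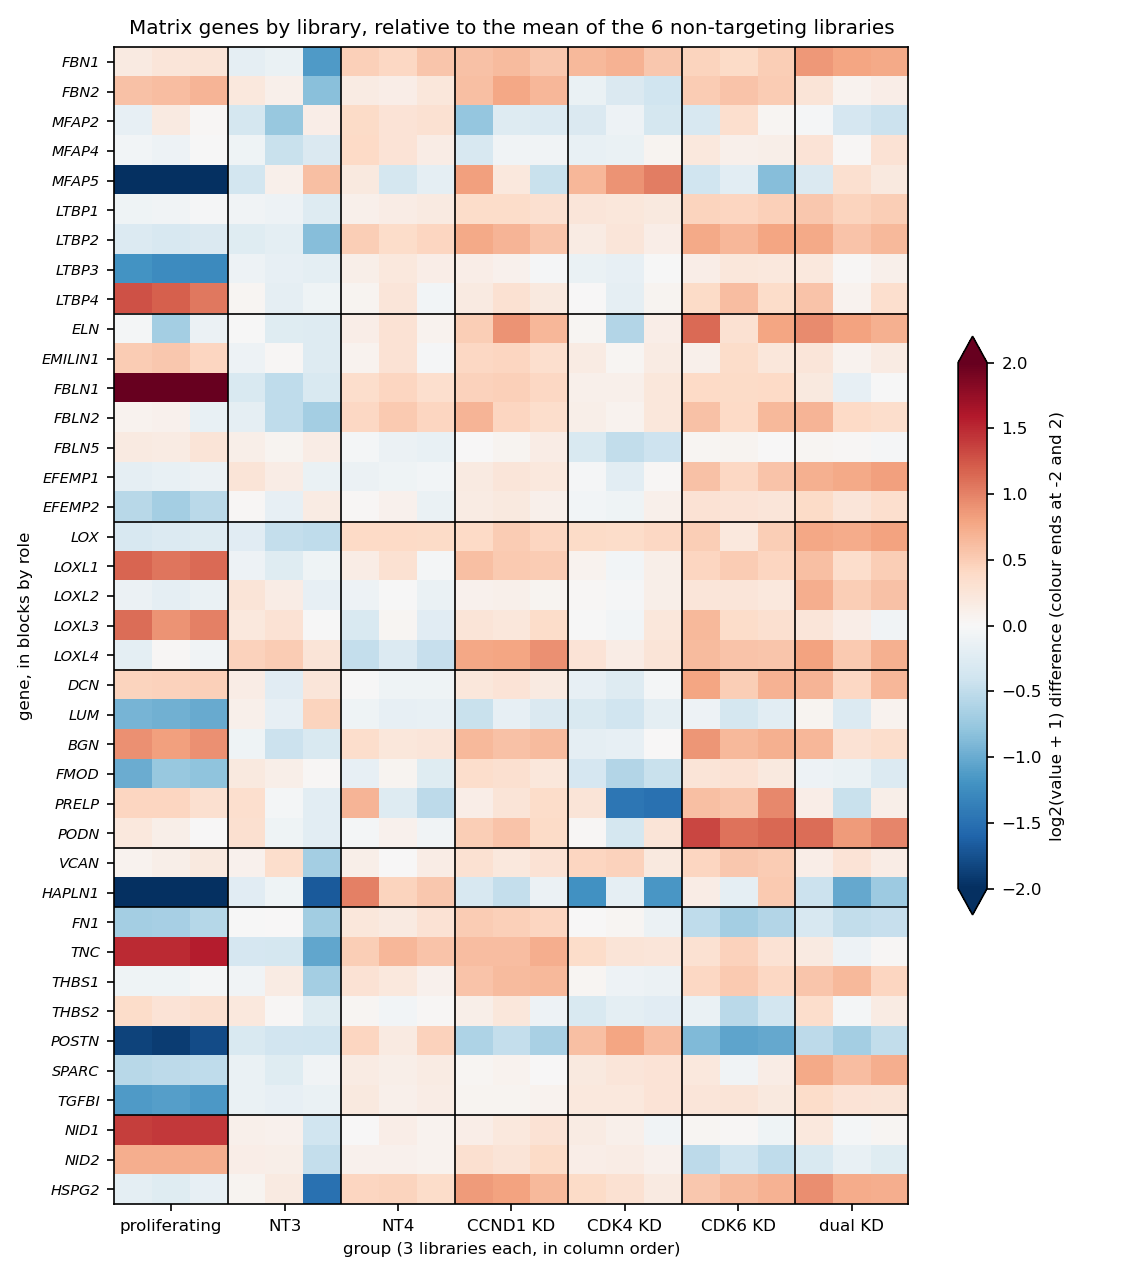
Each row is a tested matrix gene, in blocks by role, and each column a library, in 7 groups of 3; colour is the log2(value + 1) difference from the mean of the 6 non-targeting libraries, ending at -2 and 2. FBLN1 and TNC are highest in proliferating libraries, POSTN is lowest there and in CDK6 knockdown, and NT3 replicate 3 differs from NT3 replicates 1 and 2 at HSPG2, FBN1 and FBN2.

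NT3 replicate 3 stood apart from its group at long transcripts. The 8 tested matrix genes with a MANE Select transcript over 7000 bases (HSPG2, VCAN, FBN1, FBN2, TNC, LTBP2, FN1 and THBS1) were lower there than in the mean of NT3 replicates 1 and 2 by a median log2 difference of -0.81 (-1.61 to -0.63), and the other 31 by -0.13. HSPG2, the gene of the large heparan sulfate proteoglycan perlecan, was at 2868 normalised reads there against 8383 and 9160. The same was seen over all genes tested, with medians of -0.48 for 1481 genes over 7000 bases and 0.37 for 2559 genes under 2000 bases. The median of all long genes in the 18 libraries outside the NT3 group lay between -0.11 and 0.07 of their own groups. What set this library apart was not tested. Without it, the counts higher and lower were 17 and 13 for senescence, 17 and 6 for NT4 against NT3, 22 and 2 for CCND1, 9 and 8 for CDK4, 26 and 4 for CDK6, and 20 and 4 for dual knockdown, with 73.0%, 24.7%, 35.9%, 23.3%, 46.9% and 51.3% of all genes called in either direction. Without it the median of the matrix genes between NT4 and NT3 was 0.15, in CDK6 knockdown 0.31 and in CDK4 knockdown -0.02.

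**Figure D2:**
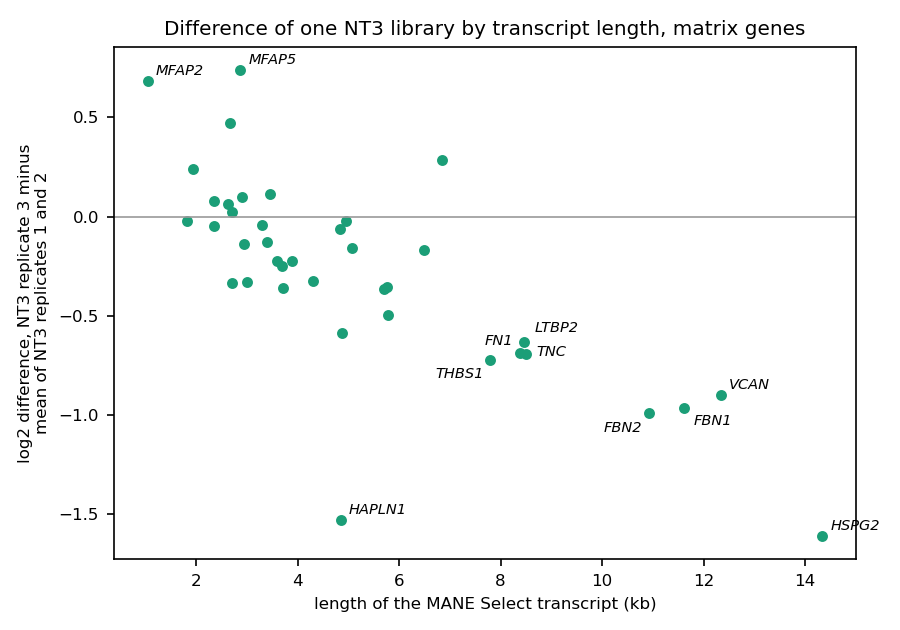
Each point is a tested matrix gene; the x axis is the length of its MANE Select transcript in kb and the y axis the log2 difference of NT3 replicate 3 from the mean of NT3 replicates 1 and 2. The 8 genes over 7 kb all lie between -1.61 and -0.63.

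Among the microfibril genes, LTBP3 rose and LTBP4 fell in senescence. LTBP3, which secretes and anchors latent TGF-beta, was at 945, 905 and 890 normalised reads in proliferating cells, 2014, 1921 and 1885 with NT3, and 2352, 2514 and 2380 with NT4 (log2 fold change 1.24, SE 0.05, limma adjusted p = 6.3e-15). LTBP4, whose protein also takes part in elastic fibre assembly, was at 2453, 2325 and 2100 in proliferating cells and between 896 and 1194 in the 6 control libraries (-1.17, SE 0.09, limma adjusted p = 2.3e-10). Neither gene's control libraries overlapped the proliferating ones. FBN2, the fibrillin made mainly during development, fell by 0.62 (SE 0.14), and LTBP2, which binds fibrillin, rose by 0.30 (SE 0.09) on the mean of the controls but stood at -0.13 against NT3 alone. FBN1, the main fibrillin, was not past the threshold (-0.23, SE 0.13).

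MFAP5, a small microfibril-associated glycoprotein, was nearly absent from proliferating cells, with 2, 0 and 2 reads, and had 12 to 25 reads with NT3 or NT4 in each library. Its log2 fold change of 3.15 (SE 0.35, limma adjusted p = 5.7e-08) depended on the pseudocount, being 4.56 with 0.1 and 1.26 with 10, and stayed past the threshold with each. MFAP2 and MFAP4, also microfibril-associated, were not past it in senescence (-0.01 and 0.05).

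LTBP1, LTBP2 and LTBP4 were higher in CDK6 knockdown and dual knockdown than in the mean of the controls. LTBP1 was at 15980, 15620 and 14043 with NT3, 18118, 18623 and 19016 with NT4, 21577, 21659 and 20959 in CCND1 knockdown, 19873, 19642 and 19145 in CDK4 knockdown, 22917, 22628 and 23480 in CDK6 knockdown, and 24508, 22974 and 23604 in dual knockdown. All 12 knockdown libraries were above all 6 control libraries, with log2 fold changes of 0.35, 0.22, 0.45 and 0.50 (SE 0.05 each), though in CDK4 knockdown the value against NT4 alone was 0.07. LTBP2 rose by 0.74 (SE 0.09) in CDK6 knockdown, 0.66 in dual and 0.66 in CCND1 knockdown. Against NT4 alone these were 0.31, 0.23 and 0.23, of which the CDK6 value passed the threshold. LTBP4 rose by 0.45 (SE 0.09) in CDK6 knockdown and by 0.32 in dual knockdown, where the call was lost without dual replicate 1 (0.20) and against NT4 alone (0.25). These LTBP4 values ran against its fall in senescence. LTBP3 was at 2373, 2544 and 2505 in CDK6 knockdown (0.19, SE 0.05, but 0.03 and not past the threshold against NT4 alone) and was past the threshold in no other knockdown, where its values were -0.10 to 0.11.

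FBN1 was at 11141, 11524 and 5794 with NT3 and 17722, 16946 and 18517 with NT4, so that the controls differed by 0.97 (SE 0.15), or 0.64 without NT3 replicate 3. It was higher than the control mean in every knockdown (0.44 to 0.80) and past the threshold against NT4 alone in none of them (-0.05 to 0.32). The NT3 libraries stayed in that fit, and their spread entered its SE. Dual knockdown libraries, at 23007, 21971 and 21396, were above all the others. FBN2 rose by 0.68 (SE 0.14) in CCND1 knockdown, against each control alone too, and by 0.53 in CDK6 knockdown, and its value in CDK4 knockdown was -0.27 (SE 0.14, limma adjusted p = 0.20), or -0.44 and past the threshold without NT3 replicate 3. MFAP2 was higher with NT4 than NT3 (0.65), a call lost without NT3 replicate 1 or 2 or NT4 replicate 1 or 3 (0.43 to 0.65), and MFAP4 was higher by 0.55 (SE 0.09). Neither passed the threshold in a knockdown against the control mean.

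Elastin was expressed at a low level and was higher than the control mean in CCND1, CDK6 and dual knockdown. ELN was at 169, 108.5 and 160 normalised reads in proliferating cells, 174, 148 and 147 with NT3, 191, 213 and 185 with NT4, 246, 325 and 279 in CCND1 knockdown, 179, 117 and 192 in CDK4 knockdown, 386, 215 and 302 in CDK6 knockdown, and 338, 305 and 287 in dual knockdown. The CCND1, CDK6 and dual libraries were above all control libraries, while the CDK4 libraries overlapped them. The log2 fold changes were 0.68, 0.74 and 0.82 (SE 0.17 each, limma adjusted p = 0.0044, 0.0015 and 0.00053), and -0.14 in CDK4 knockdown. Against NT4 alone, the CCND1 value was 0.52 and not past the threshold.

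The fibulins, glycoproteins that link elastin to microfibrils, differed among themselves. FBLN1 had the largest fall of the matrix genes in senescence, from 5475, 5402 and 5593 in proliferating cells to 897, 782 and 896 with NT3 and 1423, 1500 and 1406 with NT4 (-2.30, SE 0.06, limma adjusted p = 8.3e-18). Its rises in CCND1 knockdown (0.45) and CDK6 knockdown (0.39) were 0.08 and 0.01 against NT4 alone. FBLN2 was lower with NT3 (244, 194 and 174) than with NT4 (372, 400 and 376), and its knockdown values of 0.47 to 0.54 in the CCND1, CDK6 and dual groups were 0.01 to 0.08 against NT4 alone. FBLN5, needed for elastic fibre assembly, was lowest in CDK4 knockdown, at 2421, 2124 and 2240 against 2684 to 3295 in the control libraries (-0.40, SE 0.05, limma adjusted p = 4.9e-06), and passed the threshold against each control. In CDK6 and dual knockdown FBLN5 stood at 0.03 and 0.01. Its small fall in senescence (-0.20) lost its call against NT3 alone (-0.10) and after median centring (-0.08).

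The fibulin relatives EFEMP1 and EFEMP2 were higher in CDK6 and dual knockdown than in the control mean. EFEMP1 was at 2520, 2352 and 1927 with NT3, 1942, 1982 and 2033 with NT4, 3184, 2831 and 3126 in CDK6 knockdown, and 3465, 3580 and 3738 in dual knockdown. The knockdown libraries were above all controls, and the log2 fold changes were 0.52 and 0.76 (SE 0.07 each, limma adjusted p = 2.3e-06 and 7.7e-09). In CCND1 knockdown EFEMP1 stood at 0.21, and its call was lost against NT3 alone (0.12) and without CCND1 replicate 2 or 3 (0.20 and 0.21). EFEMP2, which brings lysyl oxidase to tropoelastin, rose in senescence (0.59, SE 0.06) and again in CDK6 knockdown (0.27) and dual knockdown (0.32). EMILIN1, an elastic fibre glycoprotein, fell in senescence (-0.49, SE 0.07) and was higher in CCND1 knockdown (0.39) and CDK6 knockdown (0.23), the latter not against NT4 alone (0.12) and not without CDK6 replicate 2 (0.16). In the group of elastin and its partners, 6 of 7 genes were higher in CDK6 than in CDK4 knockdown and none was lower, against 17.5% and 17.3% of all genes.

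The lysyl oxidases cross-link elastin and collagen. In senescence LOXL1 fell from 4144, 3890 and 4064 to between 1561 and 2293 (-1.12, SE 0.07, limma adjusted p = 2.0e-12), and LOXL3 fell from 363, 314 and 339 to between 136 and 205 (-1.01, SE 0.11). Neither gene's arms overlapped. LOX was at 15992, 16492 and 16640 in proliferating cells, 17112, 14367 and 14048 with NT3 and 26368, 26356 and 26039 with NT4. NT3 libraries lay around the proliferating level (-0.12 against NT3 alone), and NT4 libraries above it (0.68).

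In dual knockdown LOX reached 34209, 33499 and 34713, above every other library of the study (0.78, SE 0.06, limma adjusted p = 2.3e-09, and 0.38 against NT4 alone). Its rises of 0.39, 0.40 and 0.45 in CDK4, CDK6 and CCND1 knockdown were -0.01, -0.00 and 0.05 against NT4 alone. LOXL2 was at 38562, 32772 and 34996 in dual knockdown against 20856 to 27721 in the controls (0.60, SE 0.07), and at 0.24 in CDK6 knockdown. LOXL4 was lower with NT4 (319, 370 and 322) than with NT3 (611, 633 and 532). It reached 761, 772 and 845 in CCND1 knockdown, 689, 660 and 656 in CDK6 knockdown and 783, 638 and 733 in dual knockdown (0.83, 0.58 and 0.68, SE 0.08 each), all above the controls. The CDK6 value was 0.18 and not past the threshold against NT3 alone. LOXL1 rose by 0.46 to 0.54 in the CCND1, CDK6 and dual groups, against each control too. LOXL3 rose by 0.44 (SE 0.11) in CDK6 knockdown and stood at 0.28 against NT3 alone, and its CCND1 call (0.28) was lost without any 1 of 7 libraries (CCND1 replicates 1, 2 and 3, NT3 replicates 1 and 3, NT4 replicates 1 and 3; 0.24 to 0.31). All 5 enzymes were past the threshold in CDK6 knockdown, against 41.9% of all genes, but only 1 of the 5 was so against each control alone. In CDK4 knockdown 2 of 5 (LOX and LOXL4) were past it, against 16.0% of all genes, and 0 were so against each control alone. There LOXL4 (0.23) turned to -0.18 against NT3 alone and lost its call without any 1 of 6 libraries (CDK4 replicates 1, 2 and 3, NT3 replicate 3, NT4 replicates 1 and 3; 0.19 to 0.26).

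**Figure D3:**
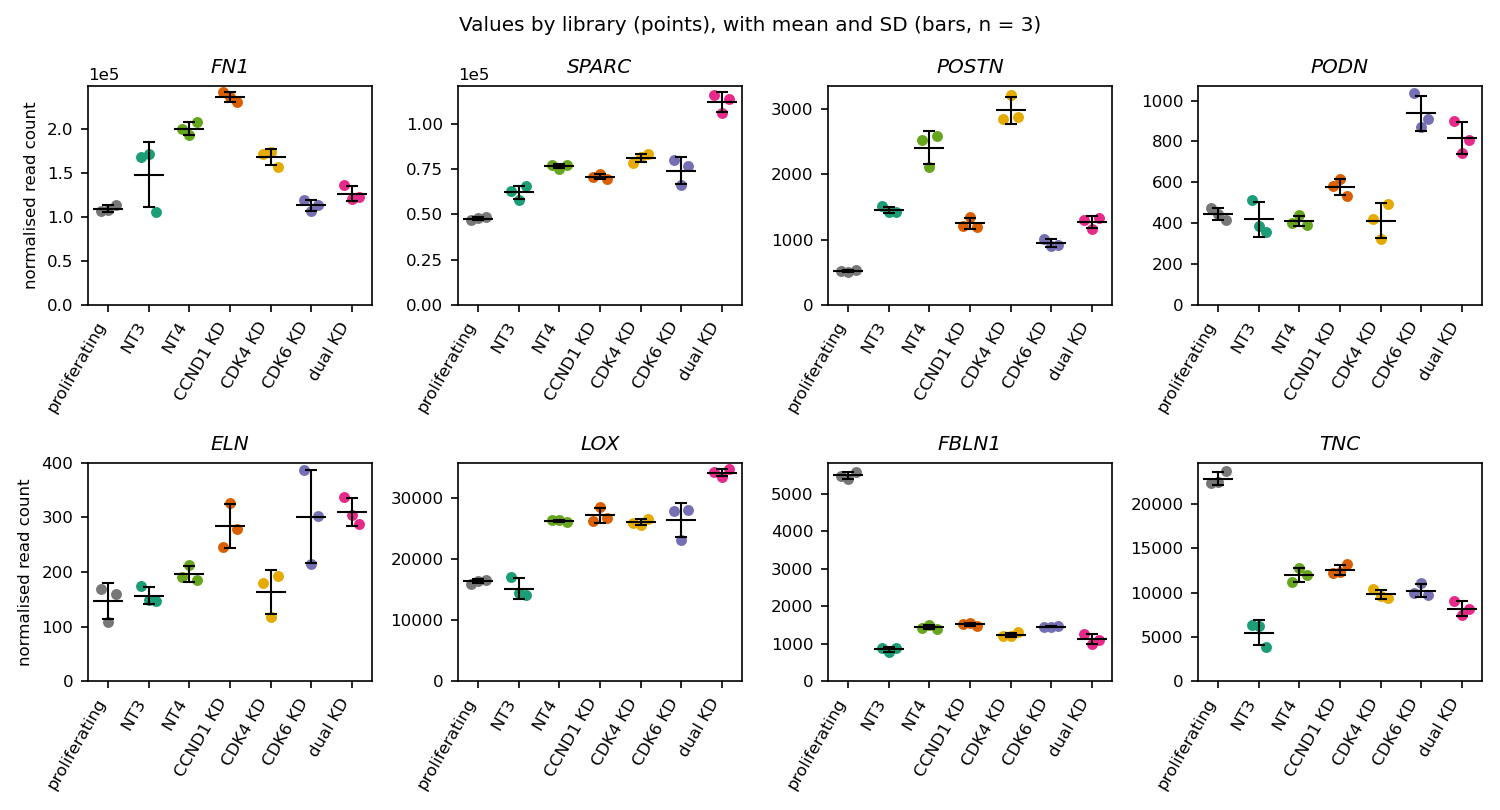
Normalised read counts of 8 matrix genes in each library (points) by group, with the mean and SD (bars, n = 3); each panel has its own axis from 0. SPARC and LOX are highest in dual knockdown, POSTN in CDK4 knockdown, PODN in CDK6 and dual knockdown, and FBLN1 and TNC in proliferating cells.

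Of the small leucine-rich proteoglycans, lumican and fibromodulin rose in senescence and decorin and biglycan fell. LUM was at 1479, 1436 and 1393 in proliferating cells and 2512 to 3824 in the controls (0.97, SE 0.10, limma adjusted p = 1.3e-08), and FMOD at 183, 216 and 209 and 311 to 421 (0.85, SE 0.08). BGN was at 1538, 1443 and 1540 in proliferating cells and 604 to 1037 in the controls (-0.88, SE 0.08, limma adjusted p = 2.6e-09), and DCN at 20426, 20710 and 20840 and 12790 to 17733 (-0.46, SE 0.08). The arms did not overlap for any of these genes. PRELP, with 15 to 33 reads in these 9 libraries, stood at -0.39 (SE 0.32).

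Podocan, a member of the same family, was the matrix gene with the largest rise in CDK6 knockdown. PODN (ENSG00000174348, GRCh38 chr1:53062213-53085494) was at 475, 446 and 415 in proliferating cells, 515, 386 and 354 with NT3, 401, 439 and 391 with NT4, 580, 615 and 535 in CCND1 knockdown, 419, 322 and 495 in CDK4 knockdown, 1036, 871 and 909 in CDK6 knockdown, and 898, 745 and 807 in dual knockdown. Every CCND1, CDK6 and dual library exceeded every control library, and the CDK4 libraries overlapped them. The log2 fold changes were 1.18 in CDK6 knockdown and 0.98 in dual knockdown (SE 0.12 each, limma adjusted p = 5.8e-08 and 5.6e-07), with 1.18 and 0.98 against NT3 alone and 1.19 and 0.99 against NT4 alone, and 0.48 in CCND1 knockdown. CCND1 knockdown was lower than CDK6 knockdown by -0.70 (SE 0.13).

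Decorin and biglycan also rose in CDK6 knockdown. DCN reached 25739, 21153 and 24182 (0.66, SE 0.08, limma adjusted p = 2.2e-06) and 24080, 19958 and 23672 in dual knockdown (0.59), all above the controls. BGN reached 1502, 1278 and 1335 in CDK6 knockdown (0.75, SE 0.08, limma adjusted p = 2.5e-07), 1279, 1223 and 1259 in CCND1 knockdown (0.62), and 1296, 993 and 1045 in dual knockdown (0.44, but 0.16 against NT4 alone). Both genes fell in senescence, and in CDK6 knockdown BGN overlapped its proliferating range. DCN in CCND1 knockdown (0.23) lost its call without any 1 of 7 libraries (CCND1 replicates 1, 2 and 3, NT3 replicate 2, NT4 replicates 1, 2 and 3; 0.16 to 0.25). FMOD was lowest of the irradiated groups in CDK4 knockdown, at 290, 243 and 268 (-0.46, SE 0.08, limma adjusted p = 0.00042), and passed the threshold against each control. FMOD was higher by 0.30 in CCND1 knockdown and 0.24 in CDK6 knockdown, neither past the threshold against NT3 alone (0.18 and 0.13), the latter also lost without CDK6 replicate 1 or 2 (0.24 and 0.22). LUM stood at -0.30 (SE 0.10) in both CCND1 and CDK4 knockdown and at -0.17 and not past the threshold against NT4 alone in both. LUM lost its call without CCND1 replicate 1 or 3 (-0.23 and -0.31), and in CDK4 knockdown without CDK4 replicate 1 or 2, NT3 replicate 1, or any 1 NT4 library (-0.31 to -0.25). PRELP had 32, 34 and 44 reads in CDK6 knockdown and 27, 7 and 7 in CDK4 knockdown, a difference of 1.60 (SE 0.37, limma adjusted p = 0.0018) that was 1.06 with a pseudocount of 10. In this group of 6 tested genes, 5 were higher in CDK6 than in CDK4 knockdown and none was lower, against 17.5% and 17.3% of all genes.

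Versican, the large hyaluronan-binding proteoglycan of loose matrix, changed little. VCAN was at 6893, 7130 and 7528 in proliferating cells, 6931, 8310 and 4063 with NT3, 7058, 6561 and 7217 with NT4, and 8780, 9506 and 9324 in CDK6 knockdown, where it rose by 0.49 (SE 0.13, limma adjusted p = 0.0043). The CDK6 libraries were above all the controls. It was not past the threshold in the other comparisons with controls or with proliferating cells. HAPLN1, the link protein that ties versican to hyaluronan, had 0, 2 and 5 reads in proliferating cells, 21, 34 and 6 with NT3, and 47, 36 and 39 with NT4. Its log2 fold change of 3.37 (SE 0.42) in senescence was 4.66 with a pseudocount of 0.1 and 1.61 with 10. Its difference between NT4 and NT3 (1.32) was lost without NT3 replicate 3 (0.81), NT4 replicate 1 (1.15), NT4 replicate 2 (1.43) or NT4 replicate 3 (1.38). That call was also lost with a pseudocount of 0.1 (1.38).

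Fibronectin, the main adhesive glycoprotein of the provisional matrix, moved in opposite directions in CCND1 and CDK6 knockdown. FN1 (ENSG00000115414, GRCh38 chr2:215360865-215436068) was at 106571, 108003 and 114231 in proliferating cells, 168757, 171390 and 105446 with NT3, 200581, 193317 and 207907 with NT4, 242657, 236646 and 230788 in CCND1 knockdown, 171866, 174709 and 157612 in CDK4 knockdown, 119808, 106619 and 113516 in CDK6 knockdown, and 136287, 120985 and 123290 in dual knockdown. The CCND1 libraries were the highest of all, and the CDK6 libraries lay around the proliferating level and overlapped only NT3 replicate 3 of the controls. The log2 fold change was 0.64 (SE 0.11) in senescence, 0.47 in CCND1 knockdown (limma adjusted p = 0.0020; 0.24 and not past the threshold against NT4 alone), -0.02 in CDK4 knockdown, -0.59 in CDK6 knockdown (limma adjusted p = 0.00014) and -0.43 in dual knockdown (-0.20 and not past it against NT3 alone). CCND1 and CDK6 knockdown differed by 1.06 (SE 0.12, limma adjusted p = 3.9e-06).

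Periostin, a matricellular protein that binds collagen and integrins and is known as a TGF-beta target, separated CDK4 from CDK6 knockdown. POSTN (ENSG00000133110) was at 516, 503 and 538 in proliferating cells, 1515, 1428 and 1426 with NT3, 2527, 2122 and 2583 with NT4, 1216, 1349 and 1191 in CCND1 knockdown, 2848, 3223 and 2879 in CDK4 knockdown, 1012, 898 and 916 in CDK6 knockdown, and 1304, 1166 and 1334 in dual knockdown. CDK4 libraries were above, and CCND1, CDK6 and dual libraries below, every control library, and all irradiated libraries were above the proliferating ones. The log2 fold changes were 1.85 (SE 0.07) in senescence, 0.67 in CDK4 knockdown, -0.58 in CCND1 knockdown, -0.99 in CDK6 knockdown and -0.56 in dual knockdown (SE 0.07 each), and each passed the threshold against NT3 and NT4 alone. CDK6 and CDK4 knockdown differed by -1.66 (SE 0.08, limma adjusted p = 1.4e-12). CCND1 knockdown was above CDK6 knockdown by 0.41 (SE 0.08).

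Thrombospondin-1, which can activate latent TGF-beta, moved the other way from periostin in the CCND1, CDK6 and dual groups. THBS1 was at 30146, 35769 and 19910 with NT3, 38984, 36842 and 33684 with NT4, 47112, 49199 and 49687 in CCND1 knockdown, 32637, 29550 and 29341 in CDK4 knockdown, 42313, 45824 and 42367 in CDK6 knockdown, and 46843, 50021 and 43040 in dual knockdown. The CCND1, CDK6 and dual libraries were above all control libraries, with log2 fold changes of 0.61, 0.45 and 0.55 (SE 0.11 each), of which the CDK6 value was not past the threshold against NT4 alone (0.25). In senescence it stood at 0.07 (SE 0.11), and was 0.19 and past the threshold without NT3 replicate 3.

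Upstream sequence of POSTN and THBS1 is shown because these genes moved in opposite directions in CDK6 knockdown; the pair was chosen after the values were seen. Sequences are from RefSeq promoters on GRCh38.p14, on the strand of the gene, and stop where an annotated exon begins. The POSTN stretch is chr13:37598845-37599018 on the minus strand, 174 bases from 250 to 77 before the start, with 32.2% GC. The THBS1 stretch is chr15:39580829-39581078 on the plus strand, the 250 bases before the start, with 69.6% GC. Capitals mark matches, on either strand, to TATAAA (the TATA box), to CAGAC (a SMAD element), to GGAATG (a TEAD element) and to TGANTCA (AP-1); none of these overlapped another.
POSTN: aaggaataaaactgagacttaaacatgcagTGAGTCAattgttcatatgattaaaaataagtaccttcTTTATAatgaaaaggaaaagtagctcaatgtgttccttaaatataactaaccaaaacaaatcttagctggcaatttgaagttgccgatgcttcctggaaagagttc
THBS1: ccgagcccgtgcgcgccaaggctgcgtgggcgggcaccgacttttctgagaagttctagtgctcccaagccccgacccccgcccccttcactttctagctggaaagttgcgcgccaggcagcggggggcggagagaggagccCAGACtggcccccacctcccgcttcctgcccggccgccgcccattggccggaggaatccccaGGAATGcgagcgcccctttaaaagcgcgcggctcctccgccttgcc

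The POSTN stretch holds an AP-1 match 220 to 214 bases before the start and TTTATA, the reverse complement of TATAAA, at 182 to 177. Over the same 174 bases, 4.62% of 27305 promoters hold the AP-1 motif and 7.10% hold TATAAA. The THBS1 stretch holds CAGAC once, and GGAATG at 46 to 41, which 37.8% and 11.9% of promoters hold over 250 bases. These matches describe letters only. Of the 42 genes, 34 were matched in the promoter table, and CAGAC was present in the 250 bases before the start in 16 of these 34, THBS1 and POSTN included. The POSTN match begins at the last base printed and runs past it, so it is not in capitals.

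SPARC, a collagen-binding matricellular protein, was highest in dual knockdown. It was at 46880, 47961 and 48380 in proliferating cells, 62811, 58256 and 65484 with NT3, 77527, 75230 and 77583 with NT4, 78727, 81632 and 83519 in CDK4 knockdown, 80141, 66088 and 76620 in CDK6 knockdown, and 116343, 106060 and 114053 in dual knockdown. Dual libraries were above all others and proliferating libraries below all others. The log2 fold change was 0.53 (SE 0.06) in senescence, 0.23 in CDK4 knockdown (0.08 against NT4 alone, and lost without CDK4 replicate 2 or 3, at 0.23 and 0.22), 0.10 in CDK6 knockdown, 0.04 in CCND1 knockdown and 0.70 in dual knockdown (SE 0.06, limma adjusted p = 6.9e-09). The summed fibroblast markers, which include COL1A1, were also highest in the dual libraries, at 659609 to 840109 against 430178 to 544956 with NT3 or NT4; their part in this was not tested. Under quantile normalization the dual value of SPARC was 0.35.

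TGFBI, an adhesion protein named for its induction by TGF-beta, rose from 28878, 29470 and 28755 in proliferating cells to 56459 to 72822 in the controls (1.13, SE 0.05, limma adjusted p = 6.3e-15). TGFBI was at 81474, 76889 and 75786 in dual knockdown (0.30, or 0.06 and not past the threshold under quantile normalization). In CDK4 knockdown it was at 73706, 73803 and 76429 (0.23, SE 0.05, limma adjusted p = 0.0014), above all controls. That call did not hold against each control alone. The CDK6 libraries were at a like level, 74947, 75471 and 72641. TNC, an anti-adhesive glycoprotein of remodelling tissue, fell from 22408, 22527 and 23696 in proliferating cells to 6325, 6243 and 3882 with NT3 and 11255, 12752 and 11948 with NT4 (-1.51, SE 0.11, limma adjusted p = 3.1e-11). The controls differed by 1.16 (SE 0.12), or 0.93 without NT3 replicate 3. In CCND1 knockdown TNC was 0.65 above the control mean and 0.07 above NT4 alone, and in CDK6 knockdown 0.35 above the mean (0.30 and not past the threshold without CDK6 replicate 2) and -0.23 against NT4 alone. THBS2 fell in senescence (-0.32, SE 0.10; -0.21 and not past the threshold after median centring) and in CDK6 knockdown (-0.35), the latter not without CDK6 replicate 2 (-0.25).

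Of the basement membrane genes, NID1 and NID2 fell in senescence, while HSPG2 was higher in 5 of the 6 control libraries than in any proliferating library. NID1, a linker between laminin and collagen IV, went from 5705, 5828 and 5800 in proliferating cells to 1654 to 2382 in the controls (-1.41, SE 0.09, limma adjusted p = 3.2e-12) and was past the threshold in no knockdown against the control mean. NID2, its paralogue, went from 10175, 10236 and 10239 to 4449 to 6737 (-0.73, SE 0.09). It was at 7676, 7374 and 8052 in CCND1 knockdown, above all controls (0.32, SE 0.09; 0.24 and not past the threshold against NT4 alone), and at 4302, 4665 and 4325 in CDK6 knockdown (-0.48, limma adjusted p = 0.00012), where only NT3 replicate 3 overlapped. CCND1 and CDK6 knockdown differed by 0.80 (SE 0.10, limma adjusted p = 9.3e-06). The dual value of -0.23 was lost without dual replicate 1 (-0.20) or 3 (-0.23), NT3 replicate 1 or 2 (-0.18 for each), or NT4 replicate 1 or 2 (-0.23 for each).

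HSPG2 was at 7021, 6810 and 7158 in proliferating cells, 10895, 10964 and 10434 with NT4, 14568, 14048 and 12654 in CCND1 knockdown, 10459, 9939 and 9163 in CDK4 knockdown, 11670, 12466 and 12984 in CDK6 knockdown, and 15354, 13473 and 13371 in dual knockdown. Because of NT3 replicate 3, its senescence value was 0.20 (SE 0.21) with that library and 0.47 (SE 0.05, past the threshold) without it. Its values in CCND1, CDK6 and dual knockdown were 0.77, 0.62 and 0.80 with it and 0.50, 0.35 and 0.53 without it, past the threshold each time; the CDK6 call was lost without CDK6 replicate 2 (0.61) or 3 (0.58). Those 3 groups lay above all control libraries, though against NT4 alone none passed the threshold (0.35, 0.20 and 0.38, limma adjusted p = 0.35, 0.58 and 0.23). NT3 replicate 3 stayed in that fit and its spread entered the SE, so these p-values do not measure the spread of the compared libraries alone.

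CDK6 knockdown was also set directly against CDK4 knockdown. These fold changes use no control library, though the control libraries enter the shared spread behind the SE and p-values. Of the 39 genes 20 were higher and 4 lower in CDK6 knockdown, against 17.5% and 17.3% of all genes, with a median of 0.28 against -0.01. The libraries did not overlap for 29 genes, against 51.7% of all genes. The genes higher by over 0.8 were PRELP, PODN, ELN, BGN, DCN and FBN2 (0.80 to 1.60), and those lower were POSTN, MFAP5, NID2 and FN1 (-1.66, -1.35, -0.60 and -0.57). MFAP5 rested on 28, 31 and 35 reads in CDK4 knockdown against 12, 15 and 9, and was not past the threshold without CDK6 replicate 3 (-1.17). Nor was MFAP5 past it with a pseudocount of 0.1 (-1.42). FBLN1 (without CDK4 replicate 1 or 2), FBLN2 (without CDK6 replicate 3) and LOXL3 (without CDK4 replicate 1 or 2 or CDK6 replicate 1) also lost their calls when a library was left out, at 0.22 to 0.36. FBN1, LOX, SPARC and TGFBI were not past the threshold, with differences of -0.19 (SE 0.15), 0.01 (0.07), -0.13 (0.07) and -0.01 (0.05).

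**Figure D4:**
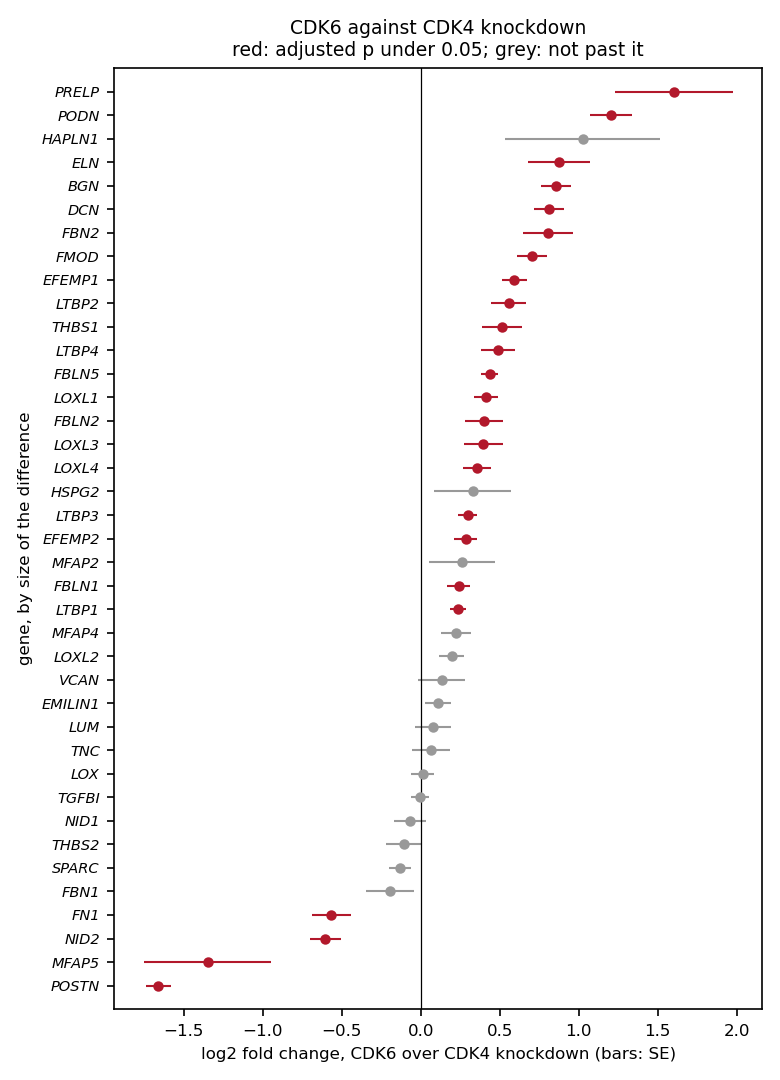
Log2 fold change of each tested matrix gene, CDK6 over CDK4 knockdown, with its standard error (bars); red points have an adjusted p under 0.05 and grey points do not. The 20 higher genes run up to PRELP at 1.60 and the 4 lower genes down to POSTN at -1.66.

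CCND1 knockdown differed from CDK6 knockdown at 9 matrix genes, 4 higher and 5 lower, against 6.78% and 5.43% of all genes (median -0.06 against 0.00). FN1, NID2, THBS2 and POSTN were higher in CCND1 knockdown, and PODN, DCN, EFEMP1, MFAP4 and TGFBI lower. THBS2 (0.42) lost its call without CCND1 replicate 1 or 2 or CDK6 replicate 2 or 3 (0.33 to 0.41), EFEMP1 (-0.31) without CDK6 replicate 1 (-0.28), and MFAP4 (-0.29) and TGFBI (-0.17) without any 1 of the 6 libraries (-0.34 to -0.21 and -0.18 to -0.16). The 24 genes whose libraries did not overlap compare with 36.5% of all genes. The count of calls depended on the fit. With only these groups fitted, more matrix genes were past the threshold, as given in the closing section. There 20.9% of all genes were called, against 12.2% in the main fit.

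Dual knockdown was also set against proliferating cells, to see where the matrix genes stood when both kinases were lost. There 33 genes were past the threshold, against 65.6% of all genes, 22 higher and 11 lower, against 32.7% and 32.9% (median 0.56 against 0.00), and the libraries did not overlap for 35 genes, against 73.1%. The largest rises were those of MFAP5 (3.22, SE 0.40) and HAPLN1 (2.64, SE 0.49), which have few reads. With a pseudocount of 10 they were 1.30 and 1.06, still past the threshold. TGFBI (1.43), LTBP3 (1.35), POSTN (1.29), SPARC (1.23), ELN (1.10) and LOX (1.06) were also higher, and FBLN1 (-2.30), TNC (-1.48) and NID1 (-1.33) lower. DCN, which had fallen in senescence, was at 0.12 (SE 0.10, limma adjusted p = 0.27) and FN1 at 0.21 (SE 0.12, limma adjusted p = 0.14). Median centring moves this comparison by 0.13 and ended the calls of FBLN5 (-0.18 to -0.05) and FBN2 (-0.46 to -0.33).

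Dual knockdown was last set against the sum of the log2 fold changes of the single knockdowns, which multiplies their effects on the scale of reads. Of the 39 genes 3 lay above that sum (FBLN5, THBS2 and SPARC) and 3 below it (FBLN1, TNC and VCAN), against 2.63% and 3.71% of all genes (median -0.03 against -0.00). FBLN5 and THBS2 kept their calls against each control alone.

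Most changes were small. A log2 change over 1 as well as the adjusted p was reached by 11 matrix genes in senescence (18.5% of all genes), 12 between dual knockdown and proliferating cells (19.0%), 4 between CDK6 and CDK4 knockdown (4.8%), 2 between NT4 and NT3 (1.88%), 1 between CCND1 and CDK6 knockdown (0.708%) and 1 in CDK6 knockdown (4.02%). The numbers were 0 in CCND1 knockdown (1.57% of all genes), 0 in CDK4 knockdown (0.345%), 0 in dual knockdown (5.76%) and 0 against the sum (1.09%), where 24, 10, 22 and 6 genes passed the adjusted p alone.

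Further matrix genes came from 4 lists of the same pathways. Among glycosaminoglycan chain enzymes, which build and trim the sugar chains of proteoglycans, 18 of 31 tested were higher and 8 lower in senescence, against 32.6% and 36.1% of all genes. SULF2, a sulfatase that edits heparan sulfate, went from a mean of 6.35 ± 2.05 normalised reads (SD, n = 3) to 243 ± 59.1 in the 6 control libraries (SD, n = 6) (5.05, SE 0.15), and its relative SULF1 from 193 ± 37.7 to 845 ± 138 (2.13, SE 0.13). SULF1 rose further in CDK6 knockdown, to 2021 ± 80.6 (1.27, SE 0.13), and CHST11, a chondroitin sulfotransferase, fell there (-0.79, SE 0.18). In CDK6 knockdown 11 were higher and 4 lower, against 21.1% and 20.8% of all genes, and in dual knockdown 12 and 6, against 22.5% and 21.5%.

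Of 14 other proteoglycans tested, 4 were higher and 7 lower in senescence (all genes 32.6% and 36.1%), 6 higher and 3 lower in CDK6 knockdown (21.1% and 20.8%), and 6 higher and 4 lower in dual knockdown (22.5% and 21.5%). The secreted proteoglycan gene ESM1 rose in senescence (2.21, SE 0.18) and fell in CDK6 knockdown (-1.57) and dual knockdown (-2.23). The cell surface proteoglycans SDC3 and GPC4 rose in CDK6 knockdown (0.97 and 0.99, SDC3 at 0.63 against NT4 alone) and in dual knockdown (1.10 and 1.13). CSPG4 and GPC6 fell in senescence (-1.37 and -1.46). GPC6 was higher with NT4 than NT3 by 1.43 (SE 0.11), and its fall was -0.74 against NT4 alone, still past the threshold.

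Of 29 other matrix glycoproteins tested, 13 were higher and 8 lower in senescence (all genes 32.6% and 36.1%) and 11 higher and 7 lower in dual knockdown (22.5% and 21.5%). In CDK6 knockdown 8 were higher and 5 lower, close to the shares of all genes (21.1% and 20.8%). In senescence COMP (4.06, SE 0.28) and MGP (3.94, SE 0.45) rose most. With a pseudocount of 10 these values were 1.37 and 1.29, still past the threshold. FBLN7 (-2.92, SE 0.27) fell most, followed by PCOLCE, which enhances procollagen processing (-2.53, SE 0.10). TNFAIP6, a hyaluronan-binding protein of inflammation, was at 83.7 ± 33.0 in the 6 control libraries, 18.7 ± 6.23 in CDK6 knockdown (-2.07, SE 0.25) and 11.7 ± 1.57 in dual knockdown (-2.67), and SMOC1, a SPARC relative, fell in both (-1.04 and -1.47, SE 0.07). CRISPLD2 rose by much the same in CDK6 (0.67), CCND1 (0.66) and CDK4 knockdown (0.57, SE 0.07 each).

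Of 18 microfibril partners and processing enzymes tested, 12 were higher and 1 lower in senescence (all genes 32.6% and 36.1%) and 9 higher and 1 lower in dual knockdown (22.5% and 21.5%). In CDK6 knockdown 5 were higher and 4 lower, close to the shares of all genes (21.1% and 20.8%). TGM2, a transglutaminase that cross-links matrix proteins, rose in senescence (1.75, SE 0.09) and fell in CDK6 knockdown (-0.62) and dual knockdown (-0.56). PLOD2, a collagen lysyl hydroxylase, rose in senescence (1.01, SE 0.05; 0.48 against NT4 alone and 1.53 against NT3 alone). It was lower with NT4 than NT3 by a log2 difference of -1.06 (SE 0.06). Its CDK6 knockdown value of -0.67 was -1.19 against NT3 alone and -0.14 and not past the threshold against NT4 alone. BMP1, which cleaves procollagens and activates LOX, rose in dual knockdown (0.47, SE 0.06).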

How the data were processed

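RNA from 21 IMR90 libraries was sequenced, in 7 groups of 3. The deposited table holds a signal per gene: normalised read counts, whole reads divided by 1 size factor per library, as the values show (100% of values were whole multiples within 0.1 read). Per the submitters' processing notes the tools were Trimmomatic 0.38.1, HISAT2 2.2.1, featureCounts 2.0.3, FastQC 0.74, MultiQC and DESeq2 2.11.40.8, with hg38/GRCh38. The annotation and strand setting are not given in the sources used here. Genes without a symbol numbered 19. Value columns that matched no sample numbered 0.

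Testing kept genes that reached 10 in 3 or more libraries and used limma 3.58.1 in R 4.3.3 on log2(value + 1), with 1 mean per group over all 7 groups, a trended variance and Benjamini-Hochberg adjustment over all 11579 genes (threshold 0.05). Fold changes are on that scale, which understates the change of low genes. Intervals on single values are not given, and the depth limits genes with few reads. The settings tried instead were pseudocounts of 0.1 or 10, testing unfiltered, a mean of at least 100, median centring, quantile normalization, each control alone, only the groups compared, an absolute log2 change over 1, each library left out, and edgeR 4.0.16 and DESeq2 1.42.0 on the recovered reads. With each control alone, the libraries of the other control stayed in the fit and entered its spread. Column names give a group and no replicate number of the labels, so replicate numbers here only name a column.

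The genes and lists were chosen with earlier results of these data known. Full values were to be given for genes named for their role. They were also to be given for the 3 largest rises and falls per comparison whose libraries did not overlap. At most 4 genes from each further list were to be named per comparison. Protein sequences, also planned, are not used here.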

Additional observations from a re-analysis of the deposited data

Results flagged for a closer look

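For 6 matrix genes the effect of CDK4 knockdown differed, on the log2 scale, with and without CDK6 knockdown. This was tested as dual knockdown against both single-knockdown log2 effects added (limma, 3 higher and 3 lower of 39, against 2.63% and 3.71% of all genes). FBLN5 was above the sum by 0.38 (SE 0.07, limma adjusted p = 0.0021) and THBS2 by 0.74 (SE 0.15, limma adjusted p = 0.0036), and both passed the threshold against NT3 alone (0.48 and 0.74) and NT4 alone (0.28 and 0.75). FBLN5 was low in CDK4 knockdown and at the control level in dual knockdown, and THBS2 was at 544 to 586 in CDK4 knockdown, 463 to 613 in CDK6 knockdown and 652 to 853 in dual knockdown. SPARC was above the sum by 0.36 (SE 0.09), with 0.21 and not past the threshold against NT3 alone, and its call was lost without CDK4 replicate 1 or 2, dual replicate 1 or 3, or CDK6 replicate 2 (0.28 to 0.37).

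FBLN1 was below the sum by a log2 difference of -0.53 (SE 0.10), with -0.15 and not past the threshold against NT4 alone. TNC was at -0.61 (SE 0.16), with -0.03 against NT4 alone, and lost its call without CDK4 replicate 1 or 2, dual replicate 2 or 3, or CDK6 replicate 2 (-0.63 to -0.54). VCAN was at -0.67 (SE 0.20, limma adjusted p = 0.047), and lost its call without any 1 of the CDK4 replicates 1 and 2 or of the CDK6, dual and NT4 libraries (-0.71 to -0.62). Without NT3 replicate 3, 9 genes were above the sum and 4 below it, against 12.4% of all genes in either direction.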

How the results depend on the processing

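Requiring an absolute log2 change over 1 left 11 genes in senescence, 2 between NT4 and NT3, 0 in CCND1, 0 in CDK4, 1 in CDK6 and 0 in dual knockdown, 0 against the sum, 4 between CDK6 and CDK4, 1 between CCND1 and CDK6, and 12 between dual knockdown and proliferating cells. Fitting only the groups compared gave 11 genes between NT4 and NT3, 4 in CDK4 knockdown, 3 against the sum and 22 between CCND1 and CDK6 knockdown, against 8.25%, 6.8%, 3.4% and 20.9% of all genes. NT3 alone gave 16 in CDK4 knockdown and 16 against the sum (25.6% and 16.4% of all genes), NT4 alone gave 19 in CDK6 knockdown (30.6%), and DESeq2 gave 10 against the sum (8.6%). Quantile normalization split the sum comparison into 2 higher and 4 lower in place of 3 and 3. With single libraries left out the counts were 25 to 30 in senescence, 18 to 25 between NT4 and NT3, 20 to 26 in CCND1, 7 to 17 in CDK4, 26 to 31 in CDK6 and 20 to 24 in dual knockdown, 3 to 13 against the sum, 22 to 25 between CDK6 and CDK4, 6 to 7 between CCND1 and CDK6, and 32 to 33 between dual knockdown and proliferating cells; 17 and 13 were without NT3 replicate 3. The cause of these shifts was not tested.

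Directions turned with 1 control alone, counting only turns where either value was past the threshold. Against NT4 alone FBLN1 was at -0.23 in CDK4 and -0.37 in dual knockdown, FBN1 at -0.048, LOX at -1.24e-05 and TNC at -0.23 in CDK6 knockdown, LOX at -0.012 in CDK4 knockdown and 0.39 against the sum, TNC at -0.55 in dual knockdown, and FBLN2 at 0.46 and LOXL4 at -0.32 in senescence. Against NT3 alone LOXL4 was at -0.18 in CDK4 knockdown, and LOX, LTBP2 and MFAP4 at -0.12, -0.13 and -0.22 in senescence. Of 7838 recomputed gene values 7405 kept their side of the threshold, and their direction where they were past it. Turns of direction between values that both fell short of it are among these.

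Header numbers of the irradiated columns run in 3 sets of 6, each with 1 library of every irradiated group. What the sets mark is not given in the sources used here. The proliferating libraries are numbered apart, 113 to 115, so header order cannot be told apart from irradiation in comparisons with them. Same-set deviations correlated at 0.065 on average (-0.297 to 0.287, 17 of 45 pairs over 0.1). Between sets the average was -0.032 (-0.444 to 0.440, 15 of 90 pairs over 0.1). Deviations were taken from the mean of each group's 3 libraries, which ties these averages to each other. They therefore cannot decide whether libraries of a set were paired. A replicate block on these sets, chosen after seeing the data, gave 19 higher and 3 lower between NT4 and NT3, 22 and 2 in CCND1, 6 and 3 in CDK4, 26 and 4 in CDK6 and 20 and 3 in dual knockdown, 3 and 2 against the sum, 21 and 4 between CDK6 and CDK4, and 4 and 4 between CCND1 and CDK6 knockdown.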
